A study of Mus musculus with 12 samples.

Results

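Chromatin accessibility was described at 9 genes of the JAK-STAT pathway: the kinase genes Jak1 and Jak2, the transcription factor genes Stat4, Stat5a and Stat5b, and the inhibitor genes Socs1, Socs2, Socs3 and Cish. A peak, which is an interval of open chromatin, was assigned to one of these genes when its centre lay within the gene's span in the mm10 mouse genome. A peak outside all protein-coding spans was assigned when the nearest span within 50 kb was one of the 9. Distances of a peak from a gene or its start are measured from the centre of the peak. The rule gave 253 of 222105 peaks, of which 161 lay within a gene and 92 between genes. For these genes it used position alone and no measured level. The 9 genes themselves were chosen with earlier results of these data known.

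The 12 libraries were made by ATAC-seq, in which the Tn5 transposase cuts open chromatin and the cut fragments are sequenced, from 6000 sorted mouse T cells each. Naive CD4+ T cells, originally from spleen and dLN, had been differentiated in culture into homeostatic Th17 cells (Th17Hom) and then kept for 2 days with or without dexamethasone (Dex), a synthetic glucocorticoid that acts through the glucocorticoid receptor (GR). The 4 groups of 3 libraries were GR cKO cells with Dex, GR cKO control cells, WT (C57/B6) cells with Dex and WT (C57/B6) control cells. In cKO cells the receptor gene is conditionally deleted. The sources used here give neither the driver of the deletion nor the deleted part. All groups share the Th17Hom culture. Nothing in the labels says whether the 3 replicates of a group are separate mice or cultures, and the p-values reflect the spread between these libraries, which may be technical.

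JAKs are tyrosine kinases bound to the tails of cytokine receptors. When a cytokine joins the receptor chains, the JAKs phosphorylate each other and the receptor, and STAT proteins dock there, become phosphorylated and move to the nucleus to bind DNA. Socs1, Socs2, Socs3 and Cish encode SH2-domain proteins of the SOCS family, many of them induced by STATs, that block JAKs or receptor tails and so end the signal. In Th17 cells, IL-6, IL-21 and IL-23 act mainly through STAT3, while STAT5, activated by IL-2, restrains Il17a transcription.

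STAT dimers recognise the letters TTCNNNGAA, a palindrome that reads the same on both strands. This motif was searched in promoter windows of 250 bases before to 50 bases after each listed gene start, taken from RefSeq for GRCm38.p6, the same build as mm10. Of the 9 genes, 8 had at least 1 listed start, with 11 windows in all. The motif was found in 8.3% of 32851 listed windows of all genes, and 0.457% held 2 or more. Among the 11 windows, that of Cish held 2 matches, that of Socs3 held 1 and the other 9 held none. Stretches of 170 bases before to 30 after the start are printed for these genes and for Socs1, an inhibitor whose window held no match, because their strongest peaks lie over these starts. Capitals mark the motif. The Cish stretch lies on the plus strand at chr9:107296489-107296688, the Socs3 stretch on the minus strand at chr11:117969337-117969536 and the Socs1 stretch on the minus strand at chr16:10785507-10785706.
Cish: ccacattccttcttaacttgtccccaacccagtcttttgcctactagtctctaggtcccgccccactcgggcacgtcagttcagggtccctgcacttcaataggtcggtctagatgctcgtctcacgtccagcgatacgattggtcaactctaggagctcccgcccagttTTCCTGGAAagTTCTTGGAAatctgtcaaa
Socs3: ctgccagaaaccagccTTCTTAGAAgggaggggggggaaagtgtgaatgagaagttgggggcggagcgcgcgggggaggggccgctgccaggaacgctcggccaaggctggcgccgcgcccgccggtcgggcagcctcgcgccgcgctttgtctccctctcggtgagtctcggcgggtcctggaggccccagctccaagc
Socs1: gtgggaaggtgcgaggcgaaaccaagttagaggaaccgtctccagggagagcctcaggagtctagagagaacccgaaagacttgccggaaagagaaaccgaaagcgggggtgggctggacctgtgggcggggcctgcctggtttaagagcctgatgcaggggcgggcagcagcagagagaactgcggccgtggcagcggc
In Cish the matches began at the listed start and 11 bases after it. In Socs3 the match lay from position -154 to -146 relative to the start. The core letters ACANNNTGT of the glucocorticoid response element, also searched on both strands, occurred once among the 11 windows, in Stat5b, against 6.85% of all windows. The AP-1 motif TGANTCA occurred in none of the 11, against 7.81% of all windows. These matches describe the letters of the windows only.

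Levels are given as CPM, the count of a peak scaled to the size of its library with TMM factors. Of the 253 peaks, 239 passed the filter on low counts and were tested. The other 14 averaged between 0.293 and 0.426 CPM. Jak1 had 71 peaks, 66 of them tested. Stat4 had 38 with 36 tested, Jak2 37 with 35, Stat5b 34 with 34, Socs3 26 with 25, Socs2 20 with 19, Socs1 11 with 9, Stat5a 10 with 10 and Cish 6 with 5. The peaks of the JAK and STAT genes lay mostly inside the genes (55 of 71 for Jak1, 31 of 38 for Stat4 and 33 of 34 for Stat5b). Those of the short SOCS genes lay mostly around them, with 2 of 26 inside Socs3 and 0 of 11 inside Socs1.

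Accessibility per kb of peak differed between the genes. Over the 12 libraries, Cish was highest with 24.8 ± 1.63 CPM per kb (SD, n = 12), followed by Socs1 with 17.4 ± 1.41 CPM per kb. The lowest of the Cish libraries, at 22.8, was above the highest of the Socs1 libraries, at 20.003 CPM per kb. Jak2 came next with 12.4 ± 1.00 CPM per kb and a highest library of 14.1, below the lowest Socs1 library at 15.3 CPM per kb. From Jak2 down, the 12-library ranges of neighbours in the order overlapped: Socs2 with 12.2 ± 0.844, Socs3 with 10.9 ± 0.974, Stat5a with 10.7 ± 0.759, Jak1 with 9.997 ± 0.615, Stat4 with 9.66 ± 0.692 and Stat5b with 8.56 ± 0.491 CPM per kb.

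**Figure D1:**
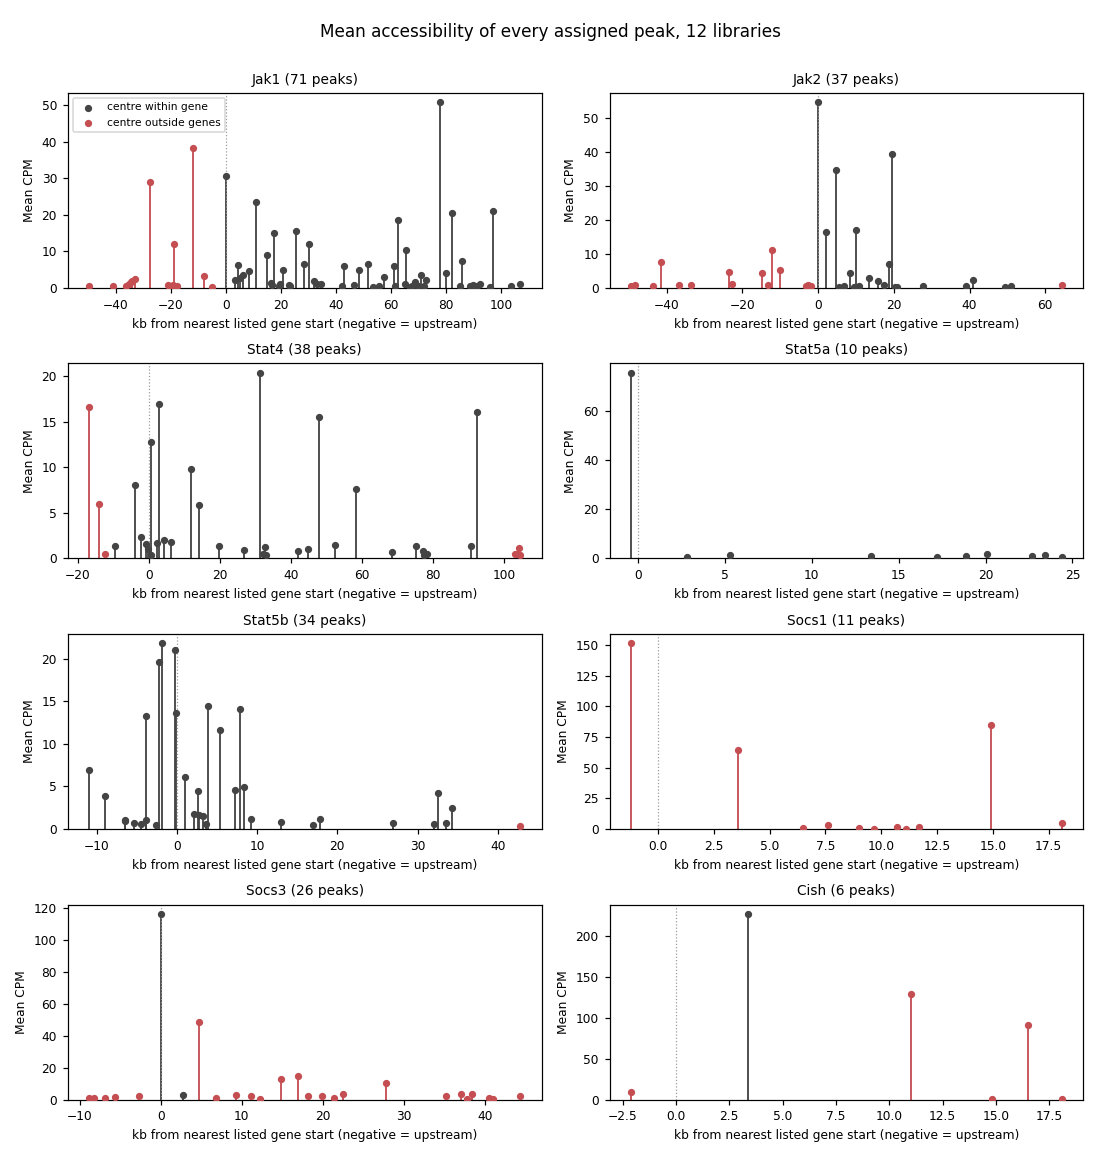
Mean CPM over the 12 libraries (y axis) of every peak assigned to 8 genes, against distance in kb from the nearest listed gene start (x axis, negative upstream). Grey marks peaks within a gene and red marks peaks outside genes. Socs2 is not drawn. In Cish, Socs1, Socs3 and Stat5a a single peak at the start holds between 47.9% and 88.9% of the summed level, while the peaks of Jak1, Stat4 and Stat5b are spread through the gene.

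The 4 inhibitor genes carried the strongest peaks by CPM, a measure that grows with the width of a peak. Cish encodes a STAT5-induced protein that dampens cytokine and T cell receptor signalling, and its strongest peak covered the whole gene (chromosome 9, 107295339 to 107304770, 9432 bases). That peak averaged 227 CPM, which ranked 3 of 202587 tested peaks, and it was the 12th widest peak of the set. Per kb it held 24.1 CPM and ranked 6806. The strongest Socs1 peak (chromosome 16, 10783914 to 10789512) averaged 151.5 CPM, covered the Socs1 start and also overlapped the promoter window of Tnp2. The strongest Socs3 peak averaged 116 CPM and the strongest Socs2 peak 84.8 CPM, the Socs2 peak also overlapping the window of 5730420D15Rik. Stat5a on the plus strand and Stat5b on the minus strand lie head to head, with 346 bases between their spans. The peak at that junction (chromosome 11, 100857934 to 100862324, 75.4 CPM) covers the facing ends of both spans. It was assigned to Stat5a by its centre, and held 88.9% of the summed level there. The strongest peaks of Jak2, Jak1, Stat5b and Stat4 averaged 54.6, 50.8, 21.8 and 20.4 CPM and held between 11.9% and 24.0% of the summed level of their gene. Per kb the order of these 9 peaks differed. That of Jak1 was then highest, at 39.7 CPM per kb, against 27.1 for Socs1, 26.9 for Socs3 and 17.7 for Socs2. The Stat5b peak at 22.9 and the Stat4 peak at 20.8 CPM per kb also stood above that of Socs2. Peaks wider than 2000 bases made up 5.14% of the 253 peaks and 2.05% of all peaks.

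None of these strongest peaks passed the threshold of edgeR's quasi-likelihood test with TMM scaling in any comparison. With other settings the strongest Jak1 peak did for Dex in WT, and with loess offsets the strongest Cish peak did for cKO against WT under Dex. The Cish peak stood at 233, 245 and 211 CPM in cKO Dex, 206, 237 and 220 CPM in cKO control, 235, 257 and 217 CPM in WT Dex and 224, 225 and 220 CPM in WT control libraries. These ranges overlapped in every comparison. The Socs3 peak stood at 111, 125 and 102 CPM in cKO Dex, 102, 124 and 96.5 CPM in cKO control, 135, 137 and 112 CPM in WT Dex and 115, 125 and 111 CPM in WT control libraries, again with overlap. The Socs2 peak stood at 88.5, 83.6 and 73.1 CPM in cKO Dex, 76.6, 80.6 and 74.0 CPM in cKO control, 99.5, 97.1 and 92.7 CPM in WT Dex and 83.1, 83.3 and 85.5 CPM in WT control libraries. Here the WT Dex libraries lay above all others, and the log2 fold change for Dex in WT was 0.20 ± 0.09 (SE, n = 3 per group) with an adjusted p of 0.556 by edgeR's quasi-likelihood test. Socs2 encodes an inhibitor best known for limiting growth hormone signalling.

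**Figure D2:**
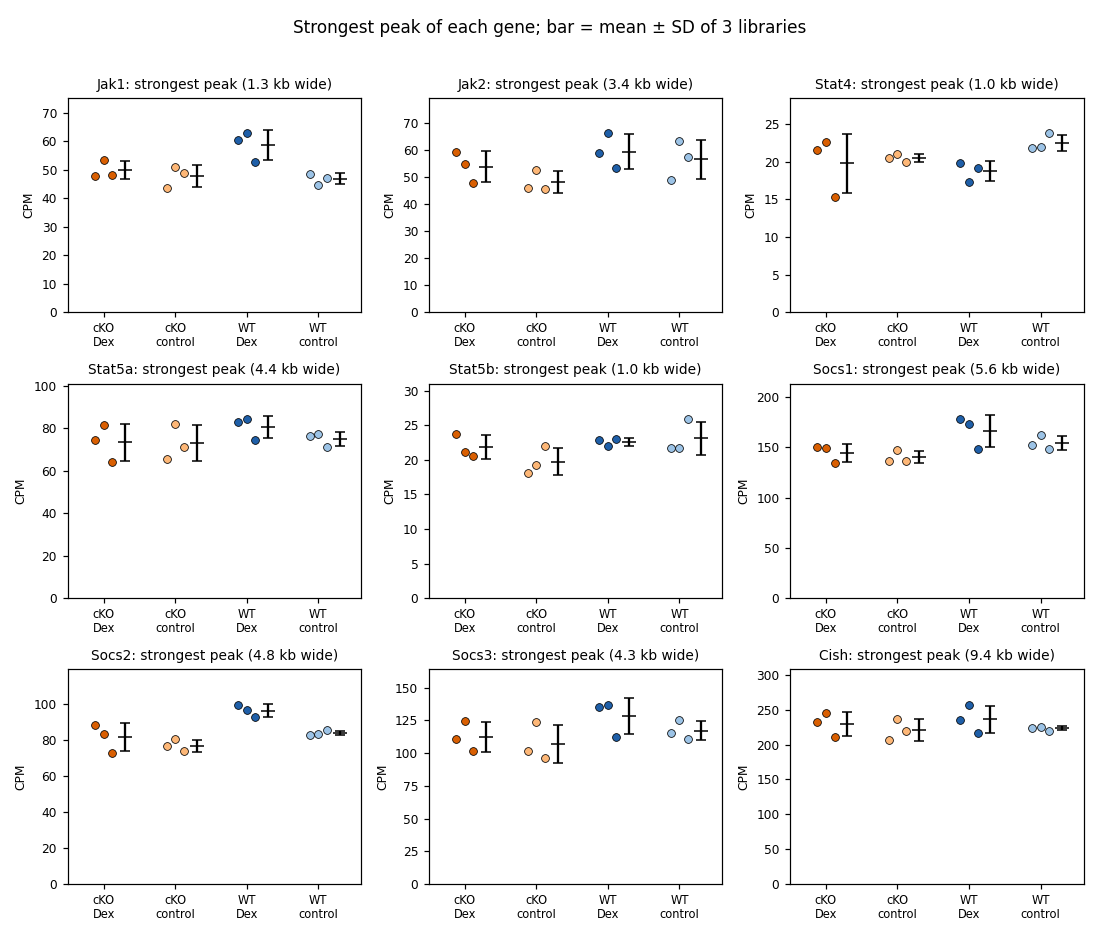
CPM (y axis, from 0) of the strongest peak of each of the 9 genes in the 12 libraries, by group (cKO Dex, cKO control, WT Dex, WT control). Points are libraries and bars the mean ± SD of 3. For Cish all groups lie between 206 and 257 CPM, while for Socs2 the 3 WT Dex libraries lie above the others.

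The libraries held between 12988437 and 25081591 counts in peaks. All 7 T cell marker genes and all 5 Th17 marker genes had a tested peak, and their strongest peaks averaged 33.0 to 63.4 CPM and 31.6 to 69.9 CPM. Strongest peaks averaged 1.40 to 41.4 CPM for 5 B cell genes, 0.886 to 47.3 CPM for 5 myeloid genes and 2.84 to 19.0 CPM for 5 CD8 T and NK cell genes, and 3 of 4 erythroid genes had a tested peak. The strongest 10% of tested peaks took a share of counts of 60.3% ± 1.88 in cKO Dex, 58.9% ± 1.27 in cKO control, 62.6% ± 1.52 in WT Dex and 61.2% ± 0.771 in WT control libraries (SD, n = 3).

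Accessibility rose after Dex in WT cells at 1 of the 239 tested peaks, inside Jak1, the kinase used by receptors for IL-2, IL-6 and interferons. The peak lies within the gene, 79.9 kb from its start (chromosome 4, 101184999 to 101185599). It stood at 5.67, 5.47 and 4.59 CPM in WT Dex libraries, against 2.21, 3.45 and 3.18 CPM in WT control libraries. All 3 WT Dex libraries were above all 3 WT control libraries. Accessibility rose 1.74-fold, a log2 fold change of 0.80 ± 0.20 (SE, n = 3 per group) with a Benjamini-Hochberg adjusted p of 0.0431 by edgeR's quasi-likelihood test. The peak was covered by 90, 98 and 81 counts in WT Dex libraries and 29, 70 and 77 counts in WT control libraries. The call was lost when WT control replicate 1, 2 or 3 or WT Dex replicate 1 or 2 was left out, at log2 values from 0.66 to 0.92, and stayed without WT Dex replicate 3. It was also lost with limma-voom, at an adjusted p of 0.0666, and with no low-count filter in edgeR, at 0.0534. With 6000 cells pooled per library, more cells with an open site and more opening per cell cannot be told apart.

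This 1 call was 0.418% of the tested peaks, against 0.534% of all 202587 tested peaks (0.42% higher), a share near the background. At an unadjusted p under 0.05 there were 27 of 239 peaks (11.3%), 19 positive and 8 negative, against 8.32% of all peaks. The median log2 fold change was 0.04 over the 239 peaks and -0.00 over all tested peaks. Of the 6 marker lists, 2 did not overlap in summed level. The 5 B cell genes were at 353 to 361 CPM in WT Dex and 378 to 401 CPM in WT control libraries, and the 5 CD8 T and NK cell genes at 151 to 163.2 CPM in WT Dex and 163.5 to 172 CPM in WT control libraries. Their part in these results was not tested. With the share of counts in strong peaks as a covariate, the Jak1 peak had a log2 fold change of 0.68 and an edgeR adjusted p of 0.113.

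The kinase genes held the 4 peaks with the smallest p, and also many of the 239 tested peaks, 66 at Jak1 and 35 at Jak2. Next to the Jak1 peak, 1362 bases away, lay the strongest Jak1 peak (101186962 to 101188242). It stood at 60.4, 62.8 and 52.7 CPM in WT Dex libraries and 48.7, 44.8 and 47.0 CPM in WT control libraries, with a log2 fold change of 0.33 ± 0.10 and an edgeR adjusted p of 0.159. The groups did not overlap, but the difference did not pass the threshold. Jak2, the kinase used by the receptors for IL-12, IL-23 and interferon gamma, had such peaks upstream. The one 23.5 kb outside the gene (chromosome 19, 29228053 to 29228628) stood at 6.68, 6.98 and 5.90 CPM in WT Dex libraries and 3.81, 3.70 and 4.45 CPM in WT control libraries. Its log2 fold change was 0.70 ± 0.19 with an edgeR adjusted p of 0.0631, again without overlap. DESeq2 called this peak, at an adjusted p of 0.0399, and the strongest Jak1 peak, at 0.0438. The one 41.6 kb outside (29209877 to 29210624) stood at 10.7, 11.2 and 6.75 CPM in WT Dex libraries and 6.71, 5.91 and 6.19 CPM in WT control libraries. Its log2 fold change was 0.61 ± 0.17 with an edgeR adjusted p of 0.0876, and the lowest WT Dex library lay just above the highest WT control library. Without WT Dex replicate 3 it was 0.81 and called by edgeR, at an adjusted p of 0.00818, and with the share of counts in strong peaks as a covariate it was 0.38.

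**Figure D3:**
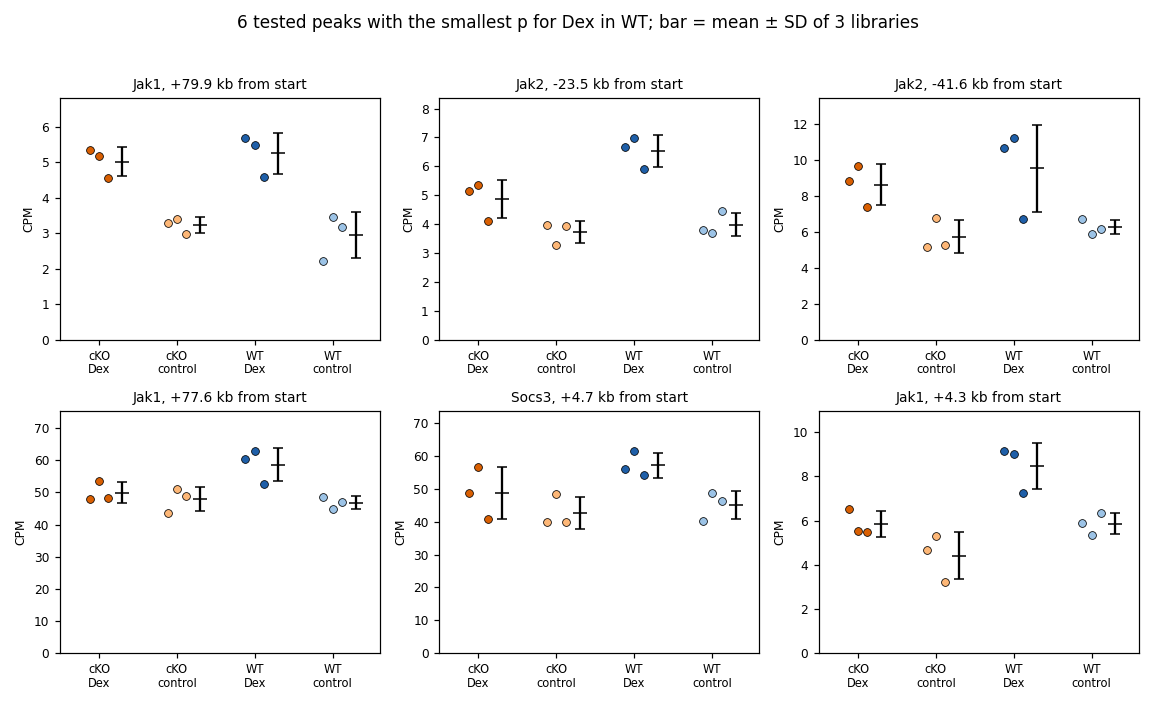
CPM (y axis, from 0) in the 12 libraries for the 6 tested peaks with the smallest p for Dex in WT, by group (cKO Dex, cKO control, WT Dex, WT control). They lie in or near Jak1, Jak2 and Socs3. Points are libraries and bars the mean ± SD of 3. In each panel the WT Dex libraries lie above the WT control libraries, which picking by p favours. Only the Jak1 peak at 79.9 kb passed the threshold, with an adjusted p of 0.0431.

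The STAT genes gave no call for Dex in WT by edgeR, DESeq2 or limma-voom, and their smallest p values fell on peaks with lower levels after Dex. Stat4 encodes the factor activated by IL-12 in Th1 cells. Its peak with the smallest p (chromosome 1, 52027675 to 52028120) stood at 1.26, 0.335 and 1.13 CPM in WT Dex libraries and 1.68, 1.77 and 1.61 CPM in WT control libraries, with a log2 fold change of -0.90 ± 0.38 and an edgeR adjusted p of 0.474. Without WT Dex replicate 2 it was -0.49. Stat5a and Stat5b encode close relatives activated by IL-2 and IL-7. In Stat5a, a peak 5.3 kb from the start stood at 1.14, 1.51 and 0.567 CPM in WT Dex libraries and 1.98, 1.97 and 2.35 CPM in WT control libraries, with a log2 fold change of -0.98 ± 0.34 and an edgeR adjusted p of 0.273. In Stat5b, a peak at 100789623 to 100790227 on chromosome 11 stood at 3.28, 2.40 and 3.29 CPM in WT Dex libraries and 3.97, 3.99 and 5.20 CPM in WT control libraries, with a log2 fold change of -0.57 ± 0.21 and an edgeR adjusted p of 0.342. In all of these the groups did not overlap and none passed the threshold. The peaks were picked for their small p, which favours groups that do not overlap.

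The inhibitor genes gave no call at single peaks by edgeR without a replicate block, DESeq2 or limma-voom. With sample quality weights 1 peak each of Socs3 and Socs1 passed, and with the replicate number as a block in edgeR the same Socs3 peak did. Socs3 encodes the main inhibitor of gp130 and IL-23 receptor signalling to STAT3. Its peak with the smallest p has its centre 1.5 kb outside the gene (chromosome 11, 117963168 to 117966083), and its edge reaches the gene's span. The peak stood at 56.2, 61.5 and 54.2 CPM in WT Dex libraries, against 40.3, 48.6 and 46.2 CPM in WT control libraries. The groups did not overlap, and the log2 fold change was 0.34 ± 0.11 with an edgeR adjusted p of 0.175. The adjusted p was 0.0364 with sample quality weights and 0.0235 with the replicate block in edgeR. Socs1 encodes a direct inhibitor of JAK kinase activity that restrains interferon and IL-2 signals. Its broad peak 13.2 kb outside the gene (chromosome 16, 10768025 to 10773197) stood at 99.7, 96.5 and 90.8 CPM in WT Dex libraries, against 81.2, 77.0 and 80.5 CPM in WT control libraries. The log2 fold change was 0.27 ± 0.09 with an edgeR adjusted p of 0.275, and of 0.0144 with sample quality weights. The peak over the Socs1 start stood at 178, 173 and 149 CPM in WT Dex libraries and 152, 162 and 149 CPM in WT control libraries, with overlap. For Cish the smallest p was at a peak 2.1 kb outside the gene, with a log2 fold change of 0.21 ± 0.15 and an edgeR adjusted p of 0.792.

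Promoter windows were covered by 9 peaks of 8 genes. Their log2 fold changes for Dex in WT lay between 0.07 and 0.31, none past the threshold, with an edgeR adjusted p of 0.483 or more. The highest was at the Stat5b start inside the gene (100822284 to 100822977), with 17.3, 16.3 and 14.9 CPM in WT Dex libraries and 11.6, 14.7 and 12.7 CPM in WT control libraries. Positive values were common among strong peaks in general. Of the tested peaks averaging over 10 CPM, 37 of 47 assigned to the 9 genes and 70.9% of 24923 others had a positive value for Dex in WT. With offsets fitted to the level of each peak by loess, the peaks over the starts of Jak2, Stat5a, Socs3, Socs1 and Cish turned negative, so no direction is given for the promoters.

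Summing all peaks of a gene gave 1 value per locus, compared over 17398 loci. None of the 9 loci passed the threshold for Dex in WT, against 2.64% of all loci, and 3 had an unadjusted p under 0.05 against 13.2% of all. Socs1 was nearest, with summed levels of 353.9, 353.2 and 337.4 CPM in WT Dex libraries and 328.2, 318.3 and 314.3 CPM in WT control libraries. The groups did not overlap, and the log2 fold change was 0.12 ± 0.04 (SE, n = 3 per group) with an edgeR adjusted p of 0.0633. As a ratio this was a 95% interval of 1.03 to 1.15. Socs1 was the locus called by DESeq2 and by limma-voom. For the other 8 loci the log2 fold change lay between -0.02 for Stat4 and 0.11 for Socs3. Jak1 had summed levels of 445.6, 445.3 and 441.3 CPM in WT Dex libraries and 417.3, 411.5 and 436.2 CPM in WT control libraries, and Socs3 had 264.2, 277.5 and 256.1 CPM in WT Dex and 244.9, 252.1 and 244.3 CPM in WT control libraries. Neither pair overlapped, with edgeR adjusted p values of 0.333 for Jak1 and 0.284 for Socs3.

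**Figure D4:**
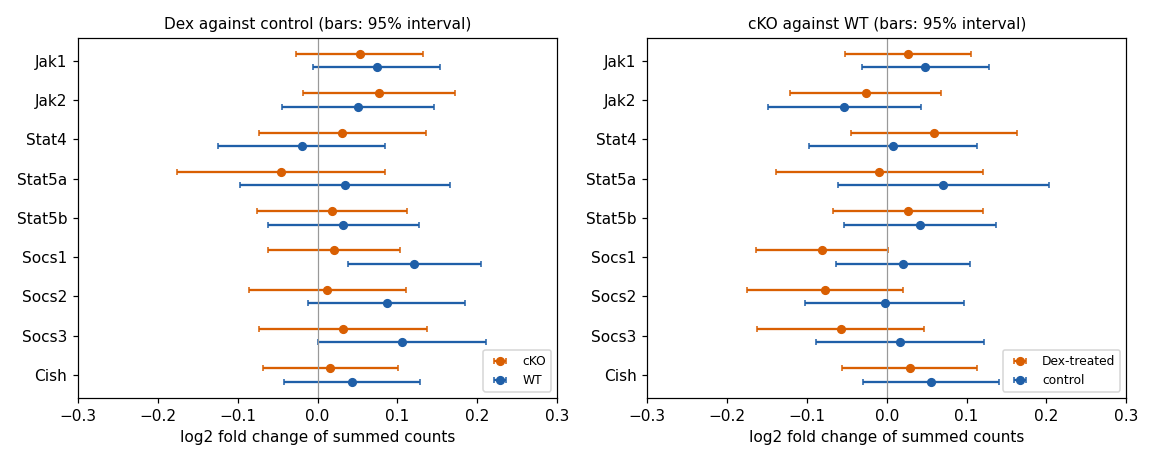
Log2 fold change of the summed counts of each of the 9 loci (x axis), for Dex against control in cKO and WT cells (left) and for cKO against WT in Dex-treated and control cells (right). Points are fitted values and bars 95% intervals, which are wider than the tests imply. The points lie between -0.08 and 0.12, and both ends are Socs1, for cKO against WT under Dex and for Dex in WT.

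Dex in cKO cells, which asks what Dex does where the receptor gene is deleted, gave no call at the 239 peaks by edgeR, DESeq2 or limma-voom, against 0.00296% of all tested peaks by edgeR. Some of the 5 peaks with the smallest p in edgeR got no adjusted p from DESeq2, which could not call those. At an unadjusted p under 0.05 edgeR gave 13 peaks (5.44%, against 5.84% of all). The median log2 fold change was 0.08, and 63.2% of the 239 peaks were positive against 49.5% of all. Of the peaks averaging over 10 CPM, 41 of 47 were positive, against 82.1% of 24923 others. The summed level of the 5 myeloid marker genes was 135 to 137 CPM in cKO Dex and 148 to 149 CPM in cKO control libraries, the only list of 6 without overlap, and its part was not tested. The Jak1 peak called in WT stood at 5.33, 5.17 and 4.54 CPM in cKO Dex libraries and 3.30, 3.39 and 2.97 CPM in cKO control libraries. The groups did not overlap there either, and the log2 fold change was 0.64 ± 0.20 with an edgeR adjusted p of 0.809. The Jak2 peak 41.6 kb outside the gene had the smallest p, with 8.83, 9.65 and 7.40 CPM in cKO Dex libraries and 5.16, 6.78 and 5.29 CPM in cKO control libraries. The groups did not overlap, and the log2 fold change was 0.58 ± 0.17 with an edgeR adjusted p of 0.742. In the other direction, a weak Stat4 peak (52076460 to 52076800) stood at 0.325, 0.172 and 0.317 CPM in cKO Dex libraries and 0.720, 0.835 and 1.23 CPM in cKO control libraries, with a log2 fold change of -1.75 ± 0.54 and an edgeR adjusted p of 0.791. It rests on 4 to 8 counts per cKO Dex library. The 9 loci lay between -0.05 and 0.08 on the log2 scale. None was called by edgeR, DESeq2 or limma-voom, against 0.00575% of all loci by edgeR, and 0 of 9 had an unadjusted p under 0.05, against 8.12% of all.

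**Figure D5:**
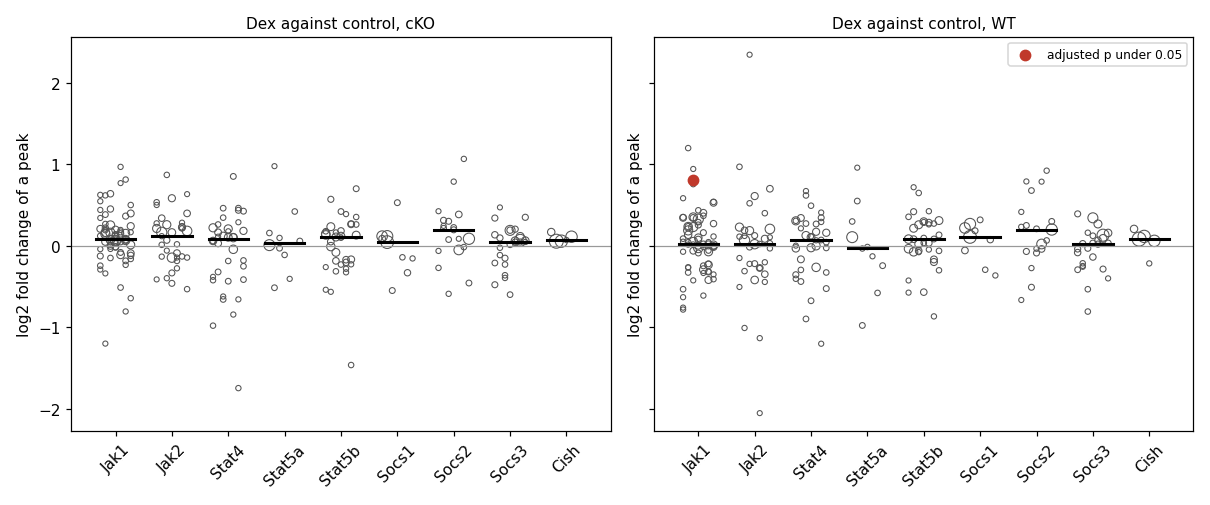
Log2 fold change of each tested peak (y axis) by gene (x axis), for Dex against control in cKO cells (left) and in WT cells (right). Circles are peaks, with area growing with the mean CPM, and thick lines the median of a gene. The filled red circle is the Jak1 peak with an adjusted p of 0.0431 in WT cells, and no peak passed the threshold in cKO cells.

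The response to Dex was compared between genotypes as the Dex effect in cKO minus that in WT. None of the 239 peaks passed the threshold by edgeR, DESeq2 or limma-voom, against 0.0276% of all tested peaks by edgeR, and 14 (5.86%, against 5.65% of all) had an unadjusted p under 0.05. At the Jak1 peak called in WT the difference was -0.16 ± 0.29 on the log2 scale (SE, n = 3 per group) with an edgeR adjusted p of 0.988. The call in WT alone therefore does not show a difference between the genotypes. Some of the peaks with the smallest p in edgeR got no adjusted p from DESeq2, which could not call those. The smallest p was at a Jak2 peak 12.2 kb outside the gene (29239396 to 29239908), with 12.3, 12.8 and 9.24 CPM in cKO Dex, 7.98, 11.2 and 11.6 CPM in cKO control, 10.3, 10.2 and 9.30 CPM in WT Dex and 13.7, 13.5 and 12.7 CPM in WT control libraries. WT Dex libraries lay below WT control libraries, while the cKO groups overlapped, and the difference was 0.58 ± 0.21 with an edgeR adjusted p of 0.701. For the loci the difference was largest in size at Socs1, at -0.10 ± 0.05 with an edgeR adjusted p of 0.679. None of the 9 loci was called by edgeR, DESeq2 or limma-voom, against 0.224% of all loci by edgeR, and 0 of 9 had an unadjusted p under 0.05, against 7.47% of all.

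Between cKO and WT control cells, no peak of the 9 genes passed the threshold by edgeR, DESeq2 or limma-voom, against 0.0104% of all tested peaks by edgeR. The peaks with the smallest p in edgeR got no adjusted p from DESeq2, which could not call them. They include the Jak2, Socs3 and Stat4 peaks described below. There were 17 peaks (7.11%, against 7.69% of all) with an unadjusted p under 0.05. Of the 6 marker lists, 3 did not overlap in summed level. The Th17 genes were at 667 to 735 CPM in cKO control and 639 to 660.3 CPM in WT control libraries, the B cell genes at 404 to 430.4 CPM in cKO control and 378 to 401 CPM in WT control libraries, and the myeloid genes at 148 to 149 CPM in cKO control and 127 to 144 CPM in WT control libraries. Their part was not tested. The smallest p was at a Jak2 peak 43.5 kb outside the gene with 9, 6 and 13 counts in cKO control libraries and 0, 2 and 4 counts in WT control libraries, and an edgeR adjusted p of 0.446. At these counts a fold is poorly determined. A Socs3 peak 41.0 kb outside the gene stood at 3.00, 3.08 and 2.77 CPM in cKO control libraries and 1.37, 1.48 and 2.23 CPM in WT control libraries, with a log2 fold change of 0.77 ± 0.27 and an edgeR adjusted p of 0.481. A stronger Stat4 peak (52100386 to 52101067) stood at 15.3, 13.5 and 12.6 CPM in cKO control libraries and 16.1, 17.7 and 18.3 CPM in WT control libraries, with a log2 fold change of -0.34 ± 0.13 and an edgeR adjusted p of 0.516. In both the groups did not overlap. The 9 loci lay between -0.05 and 0.07, and none was called by edgeR, DESeq2 or limma-voom, against 0.23% of all loci by edgeR. None of the 9 had an unadjusted p under 0.05, against 13.6% of all.

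Between cKO and WT cells under Dex, no peak of the 9 genes passed the threshold by edgeR, DESeq2 or limma-voom, against 0.17% of all tested peaks by edgeR. DESeq2 gave no adjusted p for the 5 peaks with the smallest p in edgeR, so it could not call them. There were 16 peaks (6.69%, against 8.35% of all) with an unadjusted p under 0.05. Of the 6 marker lists, 2 did not overlap in summed level. The Th17 genes were at 684 to 725 CPM in cKO Dex and 645 to 670.3 CPM in WT Dex libraries, and the B cell genes at 390.4 to 422 CPM in cKO Dex and 353 to 361 CPM in WT Dex libraries. Their part was not tested. The Stat5b peak at 100789623 to 100790227 had the smallest p. It stood at 4.68, 6.42 and 4.33 CPM in cKO Dex libraries, against 3.28, 2.40 and 3.29 CPM in WT Dex libraries, without overlap. The log2 fold change was 0.79 ± 0.21 (SE, n = 3 per group) with an edgeR adjusted p of 0.0984. The peak was called with total-count scaling, at an adjusted p of 0.0305, and with the share of counts in strong peaks as a covariate, at 0.0484, both in edgeR. The cKO control libraries stood at 4.68, 4.80 and 4.13 CPM there. In Jak1, a peak 28.2 kb from the start stood at 6.26, 9.26 and 7.02 CPM in cKO Dex libraries and 4.73, 5.19 and 5.22 CPM in WT Dex libraries, with an edgeR adjusted p of 0.212. A second Jak1 peak, 4.3 kb from the start, stood at 6.51, 5.51 and 5.49 CPM in cKO Dex libraries and 9.14, 9.04 and 7.26 CPM in WT Dex libraries, with a log2 fold change of -0.53 ± 0.17 and an edgeR adjusted p of 0.254. Peaks of the same gene thus stood on opposite sides of 0, and neither passed the threshold. The peaks over the promoter windows lay between -0.28 and -0.00 in this comparison. Of the tested peaks averaging over 10 CPM, 7 of 47 assigned to the 9 genes and 24.2% of 24923 others were positive. With loess offsets the peak over the Cish start was called higher, so no direction is given here either. The 9 loci lay between -0.08 and 0.06, and none was called by edgeR, DESeq2 or limma-voom, against 2.36% of all loci by edgeR. At an unadjusted p under 0.05 there was 1 locus, Socs1, against 15.4% of all. This comparison shares its WT Dex libraries with that of Dex in WT.

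Other pathway genes were counted from a list of 40 genes with 732 tested peaks. The list was chosen with earlier results of these data known, so its share of calls is no test against the background. For Dex in WT, 6 genes had a called higher peak, 1 had a called lower peak, and 8 peaks (1.09%) were called in all by edgeR, against 0.534% of all tested peaks. The share of all genes with a called peak is not given here. None of the 4 further SOCS genes (Socs4, Socs5, Socs6 and Socs7) had a call. Of 10 further regulators, mostly brakes on the pathway, 2 had a higher peak, and both encode tyrosine phosphatases. The log2 fold change was 0.82 ± 0.16 at Ptpn2, which removes phosphate from JAKs and STATs, and 0.84 ± 0.18 near Ptpn11, which is known both to limit and to promote cytokine signals. Of 20 receptor chain genes, Il4ra, Il7r, Il12rb2 and Ifngr1 had a higher peak and Il23r a lower one. At Il4ra, the receptor chain for IL-4, accessibility stood at 46.7, 52.5 and 42.7 CPM in WT Dex libraries and 35.5, 32.5 and 37.7 CPM in WT control libraries, a log2 fold change of 0.42 ± 0.10 with an edgeR adjusted p of 0.0318. Near Ifngr1, a chain of the interferon gamma receptor, it stood at 7.94, 4.63 and 5.67 CPM in WT Dex libraries and 1.53, 1.38 and 2.14 CPM in WT control libraries, a log2 fold change of 1.82 ± 0.24. By edgeR, none of the 40 genes had a call for Dex in cKO, for the difference of the Dex effects or for cKO against WT in control cells. For cKO against WT under Dex, a peak near Il7r was lower at -0.94 ± 0.14 and a peak in Il23r higher at 0.82 ± 0.15 on the log2 scale by edgeR, which called 0.17% of all tested peaks in that comparison.

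Across the 12 libraries, the summed level of the 9 loci varied together to different degrees. As a description over libraries that share depth, scaling and groups, Pearson's r of log2 CPM was highest between Socs3 and Jak2, at 0.84, and lowest between Socs2 and Stat4, at -0.38. Among 17398 loci, the one most like Jak2 was Cenps with r = 0.96, followed by Pcgf5 and Amn1 with 0.95 each. Socs1 was most like Lamtor4 with 0.96, Dock9 with 0.93 and Zfp36l2 with 0.93. Socs3 was most like Spata31d1b with 0.95, Itgav with 0.94 and B4galt1 with 0.94, and Jak1 was most like Ttll5 with 0.93, Glrx with 0.92 and Mxi1 with 0.92. The nearest locus was E130308A19Rik for Stat4 with 0.95, Cep43 for Cish with 0.91, St3gal1 for Stat5a with 0.89, Gucy1b1 for Socs2 with 0.89 and 0610030E20Rik for Stat5b with 0.88.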

How the data were processed

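The authors deposited whole-number counts, one joint table over 222105 peaks, which carry no normalisation per the file headers. The submitters' processing notes name the mm10 build and featureCounts 2.1.1, Genrich 0.6.1, deepTools 3.5.6, SAMtools 1.3, Picard 2.18.27, Bowtie2 2.3.5 and Trimmomatic 0.39. The sources used here do not give their settings, how reads were shifted for the transposase, or how the peaks of the libraries were joined. Each library was amplified for 16 PCR cycles, per the labels' protocols, so counts are not all independent molecules.

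Peaks were filtered with filterByExpr, scaled by TMM and fitted over all 12 libraries with 1 coefficient per group in edgeR 4.0.16 under R 4.3.3, with robust quasi-likelihood F-tests on 202587 peaks. P-values were two-sided and adjusted over all tested peaks, or over 17398 loci of summed counts, by the Benjamini-Hochberg method, with a threshold of 0.05. SE is the size of the log2 value divided by the square root of F. Locus intervals are 95% intervals on 8 residual degrees of freedom, and are wider than the quasi-likelihood tests imply. For Jak1 and Dex in WT the log2 interval ran from -0.0050 to 0.153, at an unadjusted p of 0.0381 by edgeR's quasi-likelihood test. The biological coefficient of variation had a median of 24.8%. DESeq2 1.42.0, limma 3.58.1, other scalings and filters, and leaving out each library were the alternatives.

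Named peaks were the strongest and the promoter peak of each gene, every called peak, the 5 with the smallest p per comparison and the one with the smallest p per gene, and the text prints those its results turn on. Picking peaks by a small p favours groups that do not overlap, and the share of all peaks without overlap is not given here. The genes, lists and tests were chosen with earlier results of these data known. Peaks were tied to genes by position, which does not show which gene a peak regulates.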

Additional observations from a re-analysis of the deposited data

How the results depend on the processing

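Of 45 results for single peaks, 705 alternative values were computed; 661 kept their direction and side of the threshold, 17 passed it, 8 no longer passed and 19 changed sign. DESeq2 values without an adjusted p were counted among those that kept their side. For Dex in WT, 1 peak of the 239 was called. The number was 2 with total counts, 4 with loess offsets, 3 with DESeq2, 0 with limma-voom, 6 with sample quality weights, 0 with no low-count filter, 2 with only the groups compared, and 0 to 2 when a library was left out. All these calls were higher after Dex but 1 with loess offsets, the Jak2 peak 12.2 kb outside the gene. With the share of counts in strong peaks as a covariate only that Jak2 peak was called, again lower after Dex. Over all 202587 tested peaks, the calls for Dex in WT were 1298 with DESeq2, 1006 with limma-voom, 1566 with sample quality weights and 1382 with only the groups compared. With no low-count filter they were 963 of 222105. Of 18 same-numbered pairs of libraries, 3 had a correlation over 0.1, against 4 of 36 pairs with other numbers. The medians were 0.044 and -0.011, and whether replicate numbers pair the libraries is not settled by these values. Over all peaks, Dex in WT gave 1747 calls with the replicate number as a block, against 1081 without. Of the 239 peaks, 4 were called with this block: the Jak1 peak and the strongest Jak1 peak, the Jak2 peak 23.5 kb outside and the Socs3 peak 1.5 kb outside the gene. At loci it was 1. For cKO against WT under Dex, 0 peaks were called, but 1 with total counts and 1 with the covariate (the Stat5b peak with the smallest p), and 1 with loess offsets (the strongest Cish peak, called higher there, against a log2 fold change of -0.04 with TMM). For loci and Dex in WT, 0 were called, but 1 (Socs1) with loess offsets, DESeq2, limma-voom, sample quality weights, the replicate block, the covariate, and only the groups compared.

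Sign changes for Dex in WT were small. With loess offsets the log2 fold change was -0.037 at the Jak2 start, -0.0076 at the Stat5a start, -0.00028 at the Socs3 start, -0.029 at the Socs1 start and -0.067 at Cish. With the covariate it was -0.063 at Jak2, -0.018 at Stat5a, -0.011 at Socs3, -0.0073 at Cish, -0.016 at Stat4 and -0.032 at the upstream Stat5b start. Leaving out a library gave -0.022 to 0.16 at Jak2, -0.013 to 0.29 at Stat4 and -0.083 to 0.057 at the strongest Stat5b peak. For the Jak1 peak called in WT, cKO against WT under Dex was 0.016 with total counts, 0.13 with the covariate and -0.15 to 0.0026 with a library left out, and in control cells -0.035 to 0.22. Other values for Dex in WT moved by more than 1.5 times: with the covariate the Socs3 peak 1.5 kb outside the gene was at 0.20, the Stat5b start inside the gene at 0.20 and the Cish peak 2.1 kb outside at 0.052, and with loess offsets the Socs1 peak 13.2 kb outside was at 0.15 and the strongest Socs2 peak at 0.082. The cause of these shifts was not tested. Over all peaks, Dex in WT gave 1081 calls, 78.7% of them higher, against 1757 (58.7%) with total counts, 2146 (59.1%) with loess offsets and 2244 (47.7%) with the covariate. For cKO against WT under Dex it gave 345 calls, 23.5% of them higher, against 894 (56.4%), 1005 (53.9%) and 1797 (68.0%) in these fits, and in control cells 21 calls, against 493 with DESeq2.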
